A study of Mus musculus with 6 samples.

Results

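The 10 brite and brown thermogenic marker genes *Ucp1*, *Cidea*, *Cox8b*, *Cox7a1*, *Elovl3*, *Dio2*, *Cpt1b*, *Otop1*, *Fabp3* and *Ppargc1b* were taken by symbol from 52089 symbols measured by RNA-seq in primary brite adipocytes with and without knockdown (KD) of the long noncoding RNA *Ctcflos*. All 10 were present, through 29 transcript accessions. Of them, 9 were among the 11701 genes with a mean of at least 1 RPKM (reads relative to transcript length and to the depth of the library), and *Dio2* was below it.

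The cells were preadipocytes of the stromal-vascular fraction of inguinal white adipose tissue (WAT) of 129SvEv mice, induced for 2 days and then differentiated for 1 day with rosiglitazone, a PPARγ agonist that drives browning. In 3 libraries (*Ctcflos* KD) the cells had been reverse transfected with 50 nM of an LNA Gapmer, an antisense oligonucleotide that directs RNase H to its target, and in 3 libraries (NC ctrl) with the same dose of a nontargeting Gapmer. All were harvested 24 h after transfection, so that strain, depot, rosiglitazone and transfection are shared by both groups. The study names the oligonucleotide ASO1, directed at transcript 1 of *Ctcflos*. As it is the only one in these libraries, loss of *Ctcflos* and any other effect of this oligonucleotide cannot be told apart. The labels do not say whether the 3 libraries of a group come from separate cultures, and the p-values then measure only the spread between these libraries.

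Brite adipocytes arise within white fat and share with brown adipocytes the capacity to burn fuel for heat. Heat is made when UCP1 lets protons back across the inner mitochondrial membrane without ATP synthesis. This needs fatty acids delivered to and oxidised in mitochondria, respiratory complexes to pump the protons, and transcription factors with PGC-1 coactivators that switch on these genes. All members are widely used as markers of browning, and *Cox8b*, *Cox7a1*, *Cpt1b* and *Fabp3* are also known from heart and skeletal muscle.

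*Ctcflos* itself, listed as 1300015D01Rik, had 0.0969, 0.0705 and 0.210 RPKM in the KD libraries and 0.748, 0.751 and 0.840 RPKM in the controls, or 16.1% of control on average. Depth, as recovered from the RPKM values, was 60.8 to 75.5 mio mapped reads in KD libraries and 62.9 to 79.2 mio in controls. The study states fewer reads per sample, and the reason for the difference is not known. Read numbers given below rest on the recovered depth. Of 7 markers of adipocytes, 0 were called in limma. At an unadjusted p under 0.05, for which the share of all genes was not counted, 5 were lower (*Adipoq*, *Plin1*, *Lpl*, *Pparg* and *Lipe*). *Fabp4* averaged 81.4% and *Cidec* 108% of control. The summed level of the adipocyte markers, most of it *Fabp4*, was 4407 to 5857 RPKM in KD and 6034 to 6695 RPKM in controls, without overlap. *Zic1* and *Myf5*, which mark classical brown fat of the muscle lineage, were at or near 0 in all 6 libraries, and *Lhx8*, the third such marker, had 0.521 to 0.650 RPKM in KD and 0.662 to 0.987 RPKM in controls and was not called.

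Of the 9 markers tested, 5 were lower after *Ctcflos* KD. *Ucp1*, *Otop1*, *Elovl3*, *Ppargc1b* and *Cpt1b* fell to between 37.6% and 68.2% of the control mean, and their KD libraries were all below their controls. *Cidea* and *Cox8b* averaged 50.4% and 54.8% of control, but narrowly missed the threshold. *Cox7a1* and *Fabp3* did not pass the test, and *Dio2*, whose level was low in all libraries, had 208% of the control mean. Genes were compared with limma on log2(RPKM + 1), with p-values adjusted over all 11701 genes by the Benjamini-Hochberg method and a call at an adjusted p under 0.05. Fold changes are given on that scale, which understates changes of low genes. Among the members 0 were called higher, and 12.4% of all genes tested were called lower and 11.5% higher. At an unadjusted p under 0.05 from limma, 0 of the 9 were higher and 7 lower. The share of all genes at that unadjusted cutoff was not counted, and the 12.4% and 11.5% do not stand for it. The groups did not overlap, with KD below control, for the 5 called members and for 21.9% of all genes tested. The median log2 fold change of the 9 members was -0.75, beside 0.03 over all genes tested. In bulk RNA, fewer brite cells and less of these mRNAs per cell cannot be told apart. Without a filter on low values, when 38335 genes were tested and 2.76% were called lower and 1.96% higher, 1 of the 5 calls, *Elovl3*, was kept. With all libraries, 24.0% of all genes tested were called in either direction. The number of members called was 1 without KD replicate 2, control replicate 1 or control replicate 3, when 9.31%, 3.60% and 3.16% of genes were called. It was 4 members without KD replicate 1 or 3 (10.1% and 41.1%), and 5 without control replicate 2 (13.5%).

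**Figure D1:**
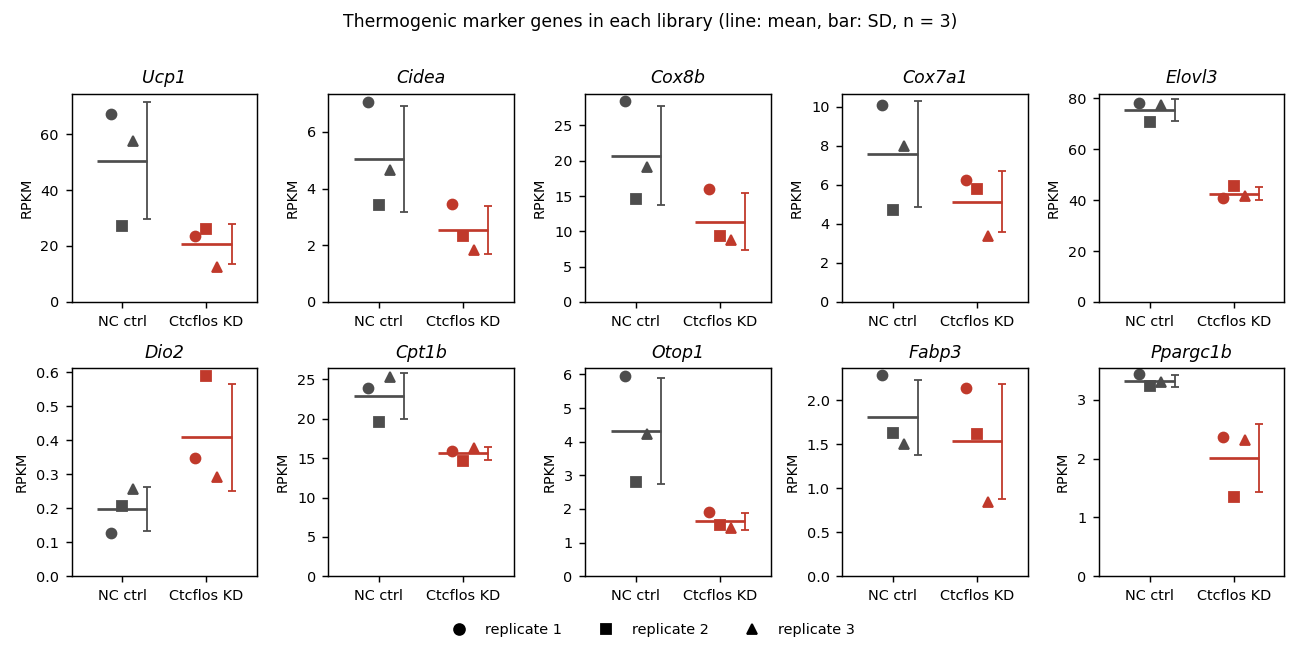
RPKM of each thermogenic marker gene in the 3 NC ctrl libraries (grey) and the 3 *Ctcflos* KD libraries (red), each panel on its own linear axis from 0, with symbols for the replicate number, a line for the mean and a bar for the SD. The groups are apart in *Ucp1*, *Elovl3*, *Cpt1b*, *Otop1*, *Ppargc1b* and, in the other direction, *Dio2*, while replicate 2 of the controls lies near the KD libraries for *Ucp1*, *Cidea*, *Cox8b* and *Cox7a1*.

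In the control cells the markers covered a wide range of RPKM, a level per transcript length. *Elovl3* was highest with 75.5 ± 4.28 RPKM (mean ± SD, n = 3), above 96.2% of the genes tested, followed by *Ucp1* with 50.5 ± 20.9 RPKM, above 94.1% of them. *Cpt1b* (22.9 ± 2.93) and *Cox8b* (20.7 ± 7.02) came next, and their control ranges overlapped. Then came *Cox7a1* (7.59 ± 2.71), *Cidea* (5.05 ± 1.86), *Otop1* (4.33 ± 1.57) and *Ppargc1b* (3.32 ± 0.101), in which each gene overlapped the next. *Fabp3* (1.81 ± 0.424) and *Dio2* (0.197 ± 0.0645) were lowest, each apart from its neighbours. In KD cells the order was the same, except that *Ppargc1b* and *Otop1* changed places.

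The promoter windows of 6 members, the 250 bases before the RefSeq start on GRCm38.p6, were searched. The windows of the other members were not searched. Of the 6 windows, 4 are shown. Those of *Ucp1* and *Otop1* belong to the most lowered of these 6 members. That of *Dio2* is shown as the only member above control, and that of *Cox8b* as a member that was not called. Capitals mark the letters searched on both strands: AGGTCA, the half-site of nuclear receptors such as PPARγ and the thyroid hormone receptors, with its direct repeat spaced by 1 base; TGACGTCA, the cAMP response element; and the general promoter elements known as the CCAAT box, the TATA box (searched as TATAAA) and the GC box (searched as GGGCGG). The windows are chr8:83290098-83290347 (plus strand) for *Ucp1*, chr5:38277154-38277403 (plus strand) for *Otop1*, chr7:140900447-140900696 (minus strand) for *Cox8b* and chr12:90739039-90739288 (minus strand) for *Dio2*. The starts in RefSeq and Gencode can differ. In Gencode *Otop1* starts at 38275972, so that its window lies within the annotated gene. The *Cox7a1* and *Fabp3* windows run into their Gencode genes, and that of *Dio2* does not adjoin its gene.
Ucp1: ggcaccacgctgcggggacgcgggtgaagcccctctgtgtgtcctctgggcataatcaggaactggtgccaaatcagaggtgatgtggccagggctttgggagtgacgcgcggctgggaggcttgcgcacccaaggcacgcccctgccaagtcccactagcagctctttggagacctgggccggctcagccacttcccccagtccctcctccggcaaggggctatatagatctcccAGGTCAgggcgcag
Otop1: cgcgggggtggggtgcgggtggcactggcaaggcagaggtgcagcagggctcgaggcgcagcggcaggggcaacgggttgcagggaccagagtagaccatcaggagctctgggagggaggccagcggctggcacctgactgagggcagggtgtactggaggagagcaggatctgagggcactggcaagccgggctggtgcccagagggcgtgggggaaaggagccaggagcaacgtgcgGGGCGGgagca
Cox8b: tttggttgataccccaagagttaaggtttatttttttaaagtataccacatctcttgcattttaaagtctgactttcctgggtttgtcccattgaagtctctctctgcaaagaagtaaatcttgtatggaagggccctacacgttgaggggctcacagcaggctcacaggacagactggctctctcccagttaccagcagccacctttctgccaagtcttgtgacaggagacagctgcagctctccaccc
Dio2: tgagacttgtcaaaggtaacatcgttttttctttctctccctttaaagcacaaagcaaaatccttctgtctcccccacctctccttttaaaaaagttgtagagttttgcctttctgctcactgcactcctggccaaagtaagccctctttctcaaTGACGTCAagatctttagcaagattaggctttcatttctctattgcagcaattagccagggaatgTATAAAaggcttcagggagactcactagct
The *Ucp1* window held AGGTCA 14 to 9 bases before the start, as did, anywhere in the window, 14.0% of 32851 promoters of the same length. The *Dio2* window held the full TGACGTCA, found in 1.55% of promoters, and TATAAA, found in 12.4%. The *Otop1* window held GGGCGG (32.7% of promoters) and that of *Cox7a1* held CCAAT at 2 positions (33.8%), while the *Cox8b* and *Fabp3* windows held none of these letters. The direct repeat, present in 0.0335% of promoters, was in none of the 6 windows. The GC content was 64.8% for *Ucp1*, 70.0% for *Otop1*, 47.2% for *Cox8b* and 41.6% for *Dio2*, beside a median of 52.4% over all promoters.

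*Ucp1*, on chromosome 8 (GRCm38, 83290352 to 83298452, plus strand, 6 exons), encodes the uncoupling protein that defines thermogenic fat. It had 23.6, 26.1 and 12.4 RPKM in the KD libraries and 67.0, 27.1 and 57.3 RPKM in the controls. All KD libraries were below all controls, but KD replicate 2 and control replicate 2 almost met. *Ucp1* fell by 1.21 on the log2 scale (standard error 0.371, 95% interval -2.07 to -0.36, adjusted p = 0.048 from limma). The 3 accessions of *Ucp1* gave nearly the same value, lowered to 41.0% of control, and the RefSeq mRNA rested on 1133 to 7842 reads per library. The call was lost when any single library other than control replicate 2 was left out: the adjusted p from limma was 0.073 without KD replicate 3, 0.075 without KD replicate 2, 0.083 without KD replicate 1, 0.15 without control replicate 3 and 0.16 without control replicate 1. It was 0.026 without control replicate 2. The call was also lost with the replicate number as a block (0.076), with a minimum mean of 5 RPKM (0.055) and without a filter (0.12), all adjusted p-values from limma.

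*Cidea*, which encodes a lipid droplet protein that is abundant in brown fat, is on chromosome 18 (67343604 to 67367785, plus strand). It had 3.46, 2.35 and 1.82 RPKM in KD and 7.07, 3.41 and 4.66 RPKM in controls. The highest KD library and the lowest control were nearly equal, and the log2 fold change of -0.75 (standard error 0.238) had an adjusted p of 0.053 in limma. This became 0.043 without control replicate 2, and was 0.053 to 0.16 when any other single library was left out. *Otop1*, a proton channel gene found in brown fat, on chromosome 5 (38275972 to 38304217, plus strand), had 1.92, 1.53 and 1.43 RPKM in KD and 5.95, 2.81 and 4.21 RPKM in controls. The KD libraries lay close together and below the controls, which spread over a wider range. In relative terms *Otop1* was the most reduced member, at 37.6% of control, and it fell by 0.98 on the log2 scale (standard error 0.202, adjusted p = 0.015 from limma). The 5 accessions ranged from 37.1% to 39.7% of control. The adjusted p from limma was 0.055 without KD replicate 2, 0.054 without control replicate 1 and 0.068 without control replicate 3.

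Among the genes of fuel supply, *Elovl3* was the most even. It encodes an elongase of saturated and monounsaturated very long chain fatty acids that is induced when brown fat is recruited, and is on chromosome 19 (46131897 to 46135694, plus strand). *Elovl3* had 40.7, 45.5 and 41.6 RPKM in KD and 78.3, 70.5 and 77.5 RPKM in controls. The groups were far apart and the libraries within each were close. *Elovl3* fell by 0.81 on the log2 scale (standard error 0.118, adjusted p = 0.0064 from limma), and it was the only member that passed the threshold in all of its 14 alternatives, with an adjusted p from limma of 0.0030 to 0.049. *Pitx3* shares exon bases with *Elovl3* on the opposite strand and had at most 0.156 RPKM.

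*Cpt1b*, the muscle-type carnitine palmitoyltransferase that admits long-chain fatty acids to mitochondria, is on chromosome 15 (89416405 to 89425863, minus strand). It had 15.9, 14.7 and 16.3 RPKM in KD and 23.9, 19.6 and 25.3 RPKM in controls. KD libraries were again tight and below all controls, and *Cpt1b* fell by 0.52 on the log2 scale (standard error 0.127, adjusted p = 0.024 from limma). Its adjusted p from limma was 0.062 without KD replicate 1, 0.076 without KD replicate 2, 0.10 without control replicate 1 and 0.11 without control replicate 3. Exon bases of *Cpt1b* are shared with the annotated gene *Gm44502* on the same strand, so that reads of both cannot be separated. *Fabp3*, a cytosolic fatty acid carrier gene on chromosome 4 (130308595 to 130315463, plus strand), had 2.15, 1.62 and 0.846 RPKM in KD and 2.29, 1.63 and 1.50 RPKM in controls. The groups overlapped, the log2 fold change was -0.17 (95% interval -0.62 to 0.28, adjusted p = 0.55 from limma), and its sign turned, to 0.04, without KD replicate 3. *Gm10570* and *Zcchc17*, both on the opposite strand, share exon bases with *Fabp3*.

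*Cox8b* and *Cox7a1* encode the muscle-type forms of cytochrome c oxidase subunits, and both are on chromosome 7 (140898945 to 140900446, minus strand, and 30184144 to 30186078, plus strand). *Cox8b* had 16.0, 9.35 and 8.72 RPKM in KD and 28.4, 14.6 and 19.1 RPKM in controls. KD replicate 1 lay above control replicate 2, and the fitted log2 difference of -0.81 had a standard error of 0.276 and an adjusted p of 0.066 in limma. This became 0.044 without KD replicate 1, and was 0.057 to 0.20 when any other single library was left out. *Cox7a1* had 6.27, 5.78 and 3.36 RPKM in KD and 10.1, 4.70 and 8.0 RPKM in controls. Here control replicate 2 was below 2 KD libraries, and the log2 fold change was -0.47 (95% interval -1.09 to 0.16, adjusted p = 0.24 from limma). The skeletal muscle markers *Myog*, *Ckm*, *Myh1*, *Myh4* and *Tnnt3* were at or near 0. Of 8 muscle markers, 7 averaged under 0.1 RPKM and 0 were called, and their sum of 1.56 to 3.00 RPKM in KD and 2.15 to 4.91 RPKM in controls was mostly *Acta1*.

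*Ppargc1b* encodes PGC-1β, a coactivator of mitochondrial and fatty acid oxidation genes. It had 2.36, 1.34 and 2.32 RPKM in KD and 3.43, 3.23 and 3.31 RPKM in controls. The controls were almost identical, KD replicate 2 was lowest, and *Ppargc1b* fell by 0.54 on the log2 scale (standard error 0.146, adjusted p = 0.033 from limma). The adjusted p from limma was 0.055 without KD replicate 2, 0.079 without control replicate 2, 0.11 without control replicate 1 and also 0.11 without control replicate 3. *Ppargc1b*, on chromosome 18 (61298136 to 61400431, minus strand), spans 102 kb, and the other members 1.50 to 28.2 kb. The 920 genes tested that span at least 100 kb had a median log2 fold change of -0.34, and the 8499 shorter ones 0.05. The part of gene length in the *Ppargc1b* result was not tested.

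*Dio2* encodes the deiodinase that converts thyroxine to active triiodothyronine inside brown fat and is a cAMP-responsive gene. It is on chromosome 12 (90724552 to 90738438, minus strand) and had 0.347, 0.589 and 0.293 RPKM in KD and 0.128, 0.206 and 0.256 RPKM in controls. All KD libraries were above all controls, KD replicate 2 most of all. The RefSeq mRNA rested on 96 to 238 reads in KD and 55 to 83 in controls. In the fit without a filter, the log2 fold change was 0.23 (95% interval 0.01 to 0.46, unadjusted p = 0.045, adjusted p = 0.20 from limma), so that the difference did not pass the threshold. An annotated gene on the opposite strand, *Gm26512*, shares exon bases with *Dio2*.

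**Figure D2:**
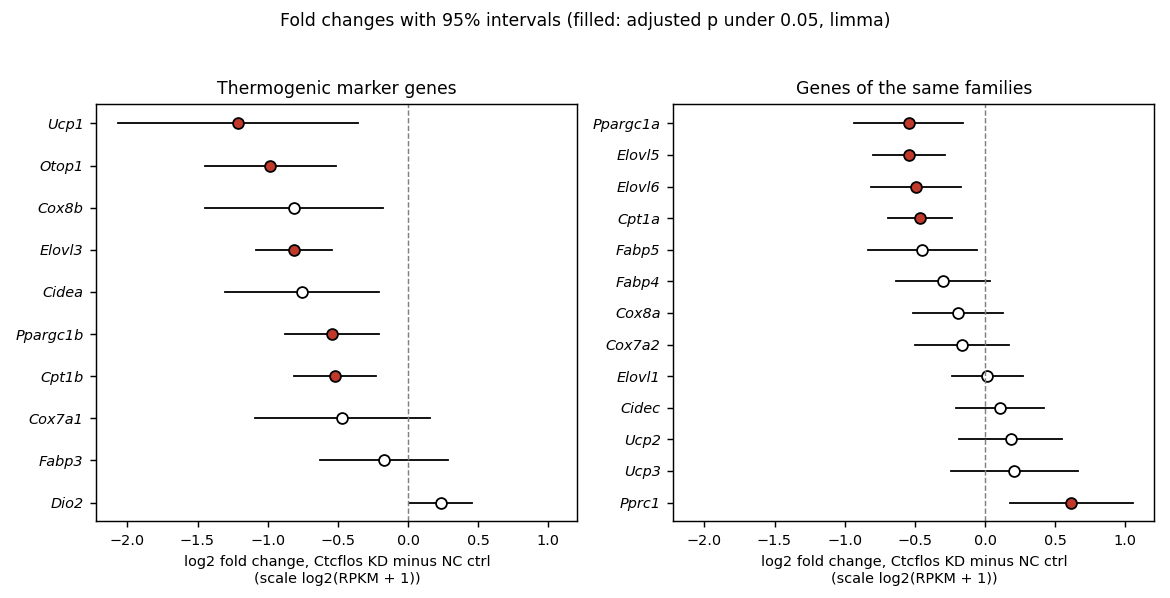
Log2 fold change (*Ctcflos* KD minus NC ctrl, scale log2(RPKM + 1)) of the thermogenic marker genes (left) and of genes of the same families with a mean of at least 1 RPKM (right), with lines for the 95% intervals and filled points for an adjusted p under 0.05 in limma. *Dio2*, the only marker to the right of 0, comes from the fit without a filter, and *Elovl3* has the narrowest interval among the 5 called markers.

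The markers differed in how they varied between libraries of the same group. For *Ucp1*, *Cidea*, *Cox8b* and *Cox7a1*, control replicate 2 had 43.5% to 61.6% of the mean of the other controls, and KD replicate 3 had 49.9% to 68.9% of the mean of the other KD libraries. For *Elovl3*, *Cpt1b* and *Ppargc1b*, the same libraries had 79.9% to 96.0% and 96.6% to 125%. *Otop1* was low in control replicate 2 (55.3%), less so in KD replicate 3 (82.7%). *Fabp3* had 85.7% and 45.0% in these libraries, and *Dio2* 107% and 62.7%. Control replicate 2 was the lowest control for 8 of 10 members and for 51.3% of the 11701 genes tested, and KD replicate 3 was the lowest KD library for 7 of 10 members and for 45.6% of the genes.

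These libraries also stood apart in markers of macrophages. *Lyz2* had 24.5 RPKM in control replicate 2 and 12.8 RPKM in KD replicate 3, against 6.90 to 7.41 RPKM in the other controls and 1.24 to 1.70 RPKM in the other KD libraries. *Adgre1* was likewise highest there, with 0.345 and 0.138 RPKM. *Cd68* was called higher in KD (adjusted p = 0.023 from limma), with 4.12, 3.44 and 2.16 RPKM in KD and 0.657, 1.92 and 0.664 RPKM in controls. Control replicate 2 was again the highest control, but KD replicate 3 was the lowest KD library. *Csf1r* had both libraries in the same places, with 1.31, 1.48 and 1.10 RPKM in KD and 0.269, 0.833 and 0.438 RPKM in controls. All its KD libraries were above all controls, but it was not called in the fit without a filter (unadjusted p = 0.0049, adjusted p = 0.066 from limma). The 4 macrophage markers summed to 6.64 to 16.2 RPKM in KD and 8.08 to 27.6 RPKM in controls, with 1 of the 2 tested called higher and 0 lower. Among 6 markers of adipocyte progenitors, the sum was lowest in the same libraries of each group, at 264 RPKM in control replicate 2 and 167 RPKM in KD replicate 3, against 405 to 439.6 and 332 to 390.1 RPKM in the others, most of it *Ly6a*. Of the 3 progenitor markers tested, *Pdgfra* was called lower in KD (60.1% of control), while *Ly6a* (81.2%) and *Cd34* (124%) were not called. The progenitor markers under 1 RPKM were not called either, with *Dpp4* at 40.5%, *Pi16* at 129% and *Dlk1* at 136% of control. The 3 endothelial markers summed to 0.492 to 0.782 RPKM in KD and 0.805 to 1.04 RPKM in controls. The part of these cells in the results for the thermogenic genes was not tested. Without both libraries, an alternative chosen after seeing the data, *Ucp1*, *Cidea*, *Cox7a1*, *Elovl3*, *Cpt1b*, *Otop1* and *Ppargc1b* were called lower, 7 members in all, in a fit that called 39.1% of all genes tested in either direction, against 24.0% with all libraries. The log2 fold change of *Ucp1* was then -1.29 (adjusted p = 0.0021 from limma), that of *Cidea* -0.81 (adjusted p = 0.029) and that of *Cox7a1* -0.51 (adjusted p = 0.026), while *Cox8b* had -0.87 (adjusted p = 0.053).

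**Figure D3:**
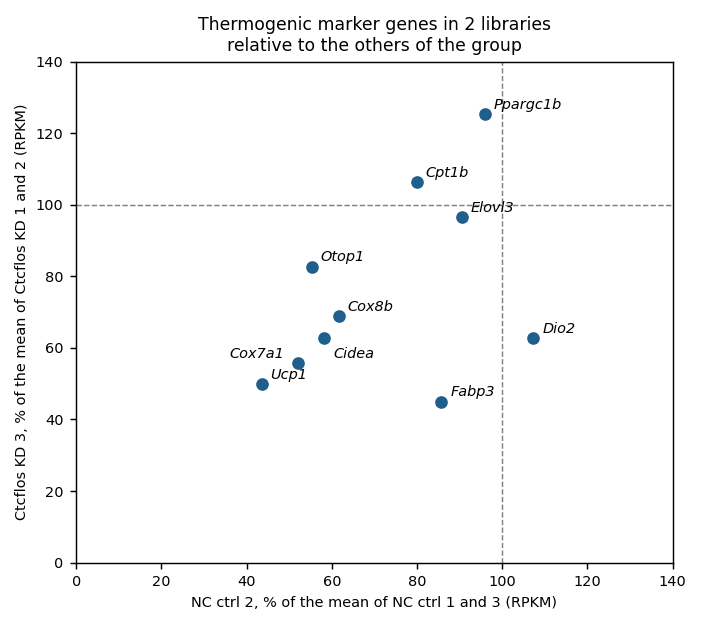
RPKM of each thermogenic marker gene in NC ctrl replicate 2 as % of the mean of the other controls (horizontal) and in *Ctcflos* KD replicate 3 as % of the mean of the other KD libraries (vertical), both axes linear, with dashed lines at 100%. *Ucp1*, *Cox7a1*, *Cidea* and *Cox8b* are low on both axes, while *Elovl3*, *Cpt1b* and *Ppargc1b* lie at 79.9% or above on both.

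Other genes of the same families were read beside the markers, most of them used in white fat, liver or many tissues, while *Ppargc1a* is itself a coactivator of the thermogenic program. *Ucp2* had 22.0 ± 4.44 RPKM in KD and 19.1 ± 2.13 RPKM in controls (mean ± SD, n = 3) and was not called (adjusted p = 0.42 from limma). *Cidec*, the lipid droplet protein of white fat, had 499 ± 56.2 and 462 ± 14.2 RPKM, *Cox8a* 369 ± 29.9 and 423 ± 43.5 RPKM, and *Cox7a2* 49.3 ± 4.84 and 55.7 ± 7.86 RPKM, and none of the 3 was called. In the elongase and carnitine transferase families, other members were called lower too. *Elovl5* averaged 67.0%, *Elovl6* 69.4% and *Cpt1a*, the liver-type transferase, 68.8% of control, while *Elovl1* averaged 101%. Of the 13 paralogs with a mean of at least 1 RPKM, 4 were called lower, the fourth being *Ppargc1a*, and 1 was called higher. The latter was *Pprc1*, a relative of the PGC-1 coactivators linked to growth, with 2.41, 0.953 and 1.38 RPKM in KD and 0.600, 0.790 and 0.540 RPKM in controls, at an adjusted p of 0.049 in limma. Its adjusted p was 0.090 to 0.18 without KD replicate 1 or any control. When any single library was left out, *Elovl6* passed the threshold only without KD replicate 3. The *Cpt1a* call was lost without KD replicate 2 or control replicate 1 or 3, and that of *Elovl5* without KD replicate 1 or control replicate 1 or 3. The adjusted p from limma reached 0.083 for *Cpt1a* without control replicate 1, and 0.081 for *Elovl5* and 0.13 for *Elovl6* without control replicate 3. *Ucp3* and *Fabp5* were not called. *Dio3*, which inactivates thyroid hormone, had 0.156 RPKM in KD and 0.305 RPKM in controls with no overlap, but was not called without a filter (adjusted p = 0.10 from limma). *Cideb* was below 1 RPKM as well, and *Dio1*, *Otop2* and *Otop3* were at or near 0.

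The ratio of the marker to another gene of its family was compared within libraries for 8 pairs by an exact two-sided permutation test whose smallest possible p with 3 libraries per group is 0.1. *Ucp1* was at 87.1%, 134% and 64.3% of *Ucp2* in KD and at 339.8%, 162% and 275% in controls. The ratio was lower in every KD library (difference -1.45 on the log2 scale, exact permutation p = 0.1, the smallest possible, adjusted p = 0.4 over the 8 pairs). *Cidea* was at 0.770%, 0.481% and 0.326% of *Cidec* in KD and at 1.55%, 0.756% and 0.975% in controls, overlapping by a small margin (exact permutation p = 0.2). *Elovl3* to *Elovl6* did not overlap either, with a small difference of -0.28 on the log2 scale (exact permutation p = 0.1). *Cpt1b* to *Cpt1a* was at 295% to 313% in KD and 276% to 337% in controls, a log2 difference of -0.0048 with an SD of 0.0435 in KD and 0.145 in controls. *Ppargc1b* to *Ppargc1a*, at 96.2% to 157% and 96.8% to 129%, also overlapped widely. *Cox8b* to *Cox8a* and *Cox7a1* to *Cox7a2* overlapped (exact permutation p = 0.3 in both).

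**Figure D4:**
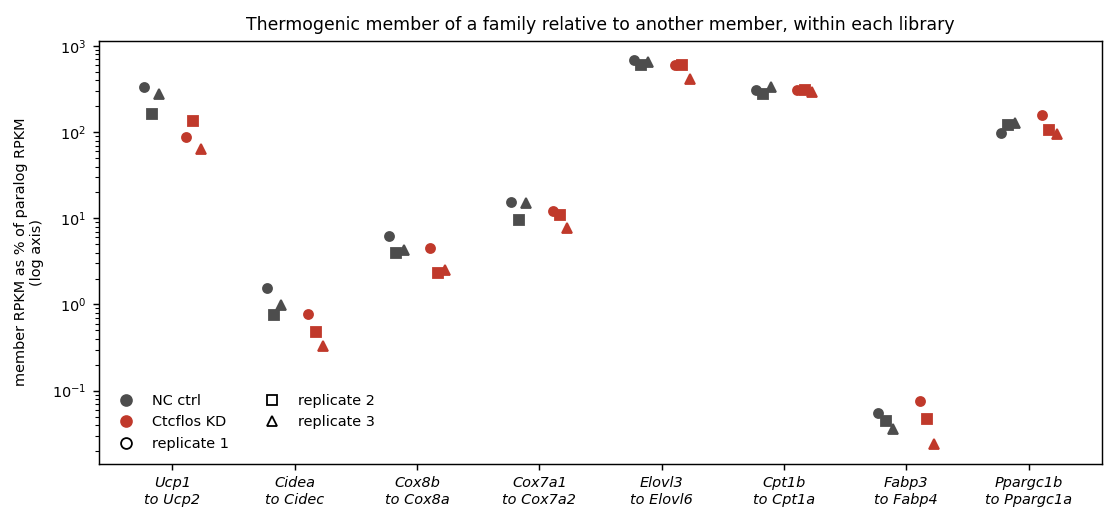
RPKM of the thermogenic member of a family as % of the RPKM of another member in each library (log axis), with NC ctrl in grey, *Ctcflos* KD in red and symbols for the replicate number. The groups are apart for *Ucp1* to *Ucp2* and *Elovl3* to *Elovl6*, and the points of *Cpt1b* to *Cpt1a* lie together.

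As the summed adipocyte markers were lower in KD, each member was also related to *Fabp4*, the abundant fatty acid binding protein of all fat cells, which had 3291 ± 404 RPKM in KD and 4041 ± 312 RPKM in controls (mean ± SD, n = 3, adjusted p = 0.16 from limma). *Elovl3* was at 1.44%, 1.31% and 1.16% of *Fabp4* in KD and at 1.87%, 1.92% and 1.83% in controls, without overlap. *Otop1* relative to *Fabp4* was lower in every KD library as well, and *Dio2* was higher in every one (exact permutation p = 0.1 in all 3, adjusted p = 0.33 over 10 members). *Ucp1* relative to *Fabp4* overlapped, with 0.347% to 0.835% in KD and 0.735% to 1.60% in controls (exact permutation p = 0.3), as did the 6 other members. Per *Fabp4*, the *Cpt1b* ratio averaged 0.481% in KD and 0.566% in controls (exact permutation p = 0.2).

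Genes whose profile over the 6 libraries was most like that of *Ucp1* were ranked by the mean absolute difference of log2 values relative to the control mean. The nearest of 11700 genes was *Thrsp*, a thyroid hormone responsive gene of lipid synthesis, at 0.14, followed by *Selenbp1*, *Ffar4*, *Ppp1r3c* and *Igfbp5*, at 0.19 to 0.22. *Thrsp* had 50.3, 61.8 and 36.5 RPKM in KD and 157, 75.5 and 149.5 RPKM in controls. Its lowest libraries, control replicate 2 and KD replicate 3, are those of *Ucp1*, which follows from how it was picked. Among the other members, *Otop1* ranked 11th, *Cidea* 31st, *Cox8b* 42nd, *Elovl3* 164th and *Cox7a1* 187th, and *Cpt1b*, *Ppargc1b* and *Fabp3* ranked 665th, 1006th and 3227th.

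The wider thermogenic program was read from a list of 50 other genes of brown fat. Of them, 35 had a mean of at least 1 RPKM, 13 of which were called lower in limma, 0 higher (0 also at an unadjusted p under 0.05) and 22 not called, beside the 12.4% of all genes called lower. The median log2 fold change of the 35 genes was -0.44, and 33 of the 35 were negative. Called lower were the regulators *Thrb* (30.3% of control), *Rxra* (39.0%), *Nfia* (40.8%), *Ebf2* (49.3%), *Ppara* (50.5%), *Cebpa* (56.4%) and *Ppargc1a* (58.7%). *Thrb* and *Rxra* encode the thyroid hormone receptor β and the retinoid X receptor α, which bind DNA as partners, and *Ebf2* and *Nfia* encode transcription factors of the brown fat program. *Rxra* had 1.73, 1.28 and 2.59 RPKM in KD and 4.81, 4.81 and 4.75 RPKM in controls. KD replicate 3 was the highest KD library for *Rxra*, *Thrb*, *Nfia*, *Cebpa*, *Ppargc1a* and, by small margins, *Ebf2* and *Ppara*, the reverse of its place for *Ucp1*. *Thrb*, *Nfia*, *Ebf2* and *Ppargc1a* span 113 to 378 kb. The number of list genes called was 3 without control replicate 1 or control replicate 3, 6 without KD replicate 1 and 7 without KD replicate 2, and 14 and 19 without control replicate 2 and KD replicate 3. *Thrb*, *Rxra* and *Ebf2* passed the threshold in each of these fits, with an adjusted p from limma of at most 0.036, 0.045 and 0.043. *Ppargc1a* and *Cebpa* passed only without KD replicate 3 among them.

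*Adrb3*, the β3-adrenergic receptor through which cold activates these cells, had 7.75, 8.04 and 12.8 RPKM in KD and 17.6, 14.5 and 17.5 RPKM in controls. All KD libraries were below all controls, and *Adrb3* fell by 0.76 on the log2 scale (standard error 0.186, adjusted p = 0.024 from limma). Its adjusted p was 0.076 and 0.082 without KD replicates 1 and 2, and 0.097 without either control replicate 1 or 3. The transporter gene *Slc36a2* (54.0% of control), *S100b* (50.3%), the mitochondrial genes *Letmd1* (63.2%) and *Sirt3* (64.0%), and *Hadha* (59.2%), the α-subunit of the trifunctional protein of fatty acid oxidation, were also called lower. *Pparg*, the target of rosiglitazone, was not called (78.0% of control, adjusted p = 0.090 from limma). *Prdm16*, the coregulator of brown fat identity, had 0.134, 0.0885 and 0.188 RPKM in KD and 0.308, 0.277 and 0.213 RPKM in controls, without overlap. It was not called in the fit without a filter (adjusted p = 0.14 from limma), in which 0 of the 15 genes under 1 RPKM were called. Of these, 3 had an unadjusted p under 0.05: *Prdm16* and *Ntrk3* (near 0 in all libraries) were lower, and *Cited1* was higher. *Cited1* had 0.963, 1.49 and 0.952 RPKM in KD and 0.658, 0.621 and 0.600 RPKM in controls, without overlap (adjusted p = 0.11 from limma). *Prdm16* was called lower in 1 of its 12 alternatives, that with RefSeq mRNA accessions alone (log2 fold change -0.17, adjusted p = 0.038 from limma). In the others its adjusted p from limma reached 0.33.

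**Figure D5:**
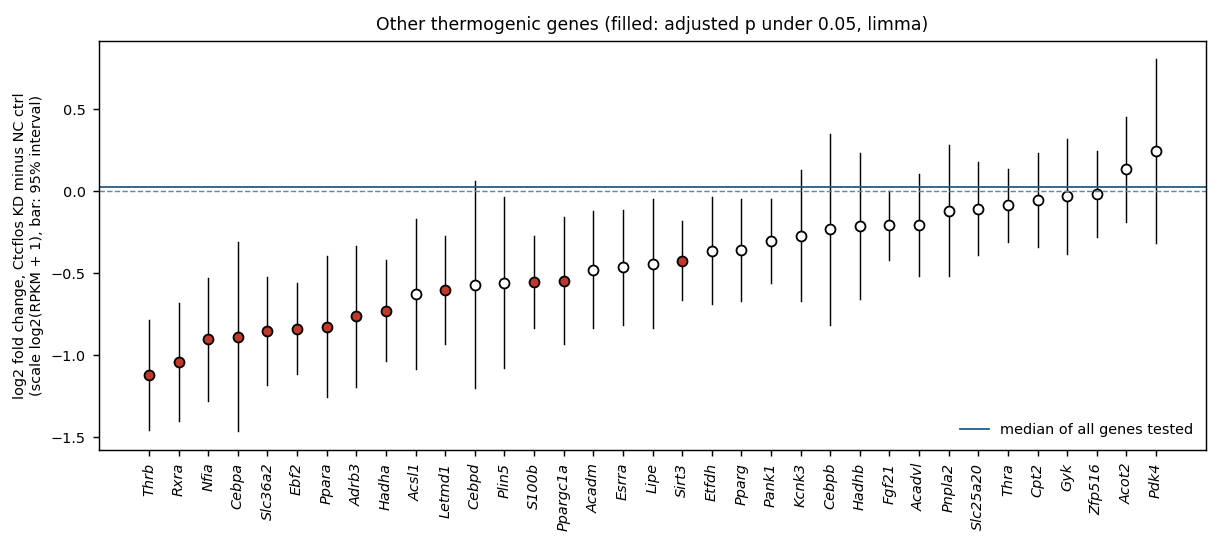
Log2 fold change (*Ctcflos* KD minus NC ctrl, scale log2(RPKM + 1)) of 35 other thermogenic genes, ordered by value, with bars for the 95% intervals, filled points for an adjusted p under 0.05 in limma and a line for the median of all genes tested. The 13 filled points are all below 0, with *Thrb* lowest, and *Acot2* and *Pdk4* alone are above 0.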

How the data were processed

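Libraries were made from total RNA with a stranded total RNA kit, per the labels. The authors deposited RPKM values of transcript accessions for each library, not pooled. For splicing, the study mapped reads of these libraries to GRCm38 with STAR. How the RPKM values were counted, and whether strand was used, is not given in the sources used here, and overlapping accessions or genes can share reads. Exact repeats (305 lines) were removed, and accessions of a symbol were averaged to give the RPKM of the gene. Depth was recovered from the values, since in each library at least 94.0% of low values were within 0.05 of whole reads. Groups were compared with limma-trend 3.58.1 in R 4.3.3 on log2(RPKM + 1) for genes with a mean of at least 1 RPKM. Genes below it were read from a fit without the filter. Designs that assume counts were not used. Single ratios were tested with exact permutation in Python 3.11.15. The method was tested on simulated data. Positions and exon overlaps come from Gencode vM21 (GRCm38), and promoters from RefSeq.

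The members and gene lists were chosen with earlier results of these data known. Named were all members, their paralogs, *Ctcflos*, marker genes, the other thermogenic genes called without overlap (at most 12, by p) with *Prdm16*, *Ppargc1a*, *Pparg*, *Ppara* and *Adrb3*, and the 5 genes most like *Ucp1*. *Acot2*, *Pdk4*, *Cited1* and *Ntrk3*, and Gencode genes that share exon bases with members, were named after their values were seen. Alternatives were a pseudocount of 0.1, other filters, a replicate block, median-of-ratios scaling, RefSeq mRNAs alone, the highest accession, and leaving out each library.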

Additional observations from a re-analysis of the deposited data

How the results depend on the processing

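In the main analysis 2803 genes (24.0% of those tested), 5 members and 13 other thermogenic genes were called. No filter on low values gave 1807 (4.71% of 38335 genes), 1 and 6. A minimum mean of 5 RPKM gave 914 (18.1% of 5045 genes), 2 and 7, with fewer members and list genes tested. A block for the replicate number left 1671 genes (14.3%), 5 members and 10 other genes called, with *Ucp1* and *Cpt1b* lost (adjusted p = 0.076 and 0.050 from limma) and *Cidea* and *Cox8b* gained (0.029 and 0.026). Whether an equal replicate number means a shared culture is not known. Between KD and control departures from the group mean, the correlations were 0.29, -0.29 and -0.42 for replicates 1, 2 and 3. With 3 libraries per group, these mixed values cannot decide whether the libraries are paired. Leaving out 1 library gave 369 to 4810 genes (3.16% to 41.1%), 1 to 5 members and 3 to 19 other genes. Leaving out both NC ctrl replicate 2 and *Ctcflos* KD replicate 3 gave 4577 (39.1%), 7 and 22. A pseudocount of 0.1, scaling by the median of ratios, RefSeq mRNAs alone and the highest accession kept each count within 1.5 times, with 4 to 7 members. These fits called 23.5%, 25.3%, 30.4% and 23.5% of the genes tested. The direction of every member was kept in every alternative, except *Fabp3*, which ranged from -0.34 to 0.04 when 1 library was left out. Of the ratios, *Fabp3* to *Fabp4* (main value -0.0099) was 0.043 with RefSeq mRNAs alone, 0.042 with the highest accession and -0.41 to 0.43 when 1 library was left out. *Ppargc1b* to *Ppargc1a* (0.036) was -0.058 with RefSeq mRNAs alone and -0.18 to 0.18 when 1 library was left out. *Cpt1b* to *Cpt1a* (-0.0048) was 0.0033 with the highest accession and -0.079 to 0.066 when 1 library was left out, and *Cox7a1* to *Fabp4* (-0.24) was -0.52 to 0.10. The causes were not tested. The exact permutation test of single ratios cannot go below p = 0.1, and *Dio2*, *Prdm16* and *Ctcflos* rest on few reads.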
